A study of Mus musculus with 12 samples.

Results

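The Wnt receptors and secreted inhibitors described here are 10 genes: the Frizzled receptor genes Fzd1, Fzd2, Fzd5, Fzd6 and Fzd7, and the genes of the secreted inhibitors Sfrp1, Sfrp2, Dkk2, Dkk3 and Wif1. They were chosen by gene symbol in the annotation of the array, which gave 22 probe sets, of which 19 passed a filter on low signal. All 10 genes were among the 14163 genes that had a kept probe set, and the brightest kept probe set of each gives its main value. The tissue is the conjunctival fornix of mice, the fold where the lining of the eyelid meets the eyeball. Its epithelial layer had been collected by laser capture, and the RNA was measured on 12 Affymetrix arrays, 1 per sample. Wild-type mice were sampled on postnatal days 9, 14 and 20 (PN9, PN14 and PN20), and Klf4CN mice on day 14. Each of the 4 groups has 3 samples, and the labels give no treatment. Klf4CN is described by the labels as a conditional knockout of Klf4, a zinc finger transcription factor of surface epithelia. All 12 samples share a strain described as a mixed background. The Cre driver, the part of Klf4 that was deleted and the sexes are not given in the sources used here.

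Wnt proteins are secreted lipid-modified signals that bind Frizzled receptors together with a co-receptor, Lrp5 or Lrp6. In the canonical branch this stops the destruction of beta-catenin, which then enters the nucleus and works with TCF/LEF factors, while other branches act through the cytoskeleton and calcium. Secreted inhibitors work outside the cell: Sfrp proteins and Wif1 bind the Wnt proteins themselves, and Dkk proteins of the classical kind, Dkk2 among them, bind the co-receptor. At the ocular surface, mice that lack Dkk2 are known to form skin-like tissue in place of corneal epithelium, and Fzd5 is known in mice for its part in eye development.

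Promoter sequence is shown for 3 genes because the members moved in different directions: Fzd5 rose with age, Wif1 fell, and Fzd1 did not pass the test. Each line gives the 250 bases before the annotated start of the gene, 5′ to 3′ on the strand of the gene, from RefSeq on GRCm38.p6. Fzd5 is shown from chr1:64737751-64738000 (minus strand), Wif1 from chr10:121033754-121034003 (plus strand) and Fzd1 from chr5:4758217-4758466 (minus strand). Capitals mark matches, on either strand, to the GC box GGGCGG or to the core of TCF/LEF sites, CTTTGA.
Fzd5: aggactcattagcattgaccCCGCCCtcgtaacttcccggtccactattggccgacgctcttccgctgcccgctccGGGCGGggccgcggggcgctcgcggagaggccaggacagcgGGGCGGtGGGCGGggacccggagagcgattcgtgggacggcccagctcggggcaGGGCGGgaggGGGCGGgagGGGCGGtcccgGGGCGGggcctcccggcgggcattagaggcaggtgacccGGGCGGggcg
Wif1: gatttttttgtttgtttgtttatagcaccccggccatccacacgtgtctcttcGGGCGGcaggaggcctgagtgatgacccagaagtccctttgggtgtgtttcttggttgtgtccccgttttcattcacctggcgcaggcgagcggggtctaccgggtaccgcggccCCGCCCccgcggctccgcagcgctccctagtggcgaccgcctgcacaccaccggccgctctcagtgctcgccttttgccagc
Fzd1: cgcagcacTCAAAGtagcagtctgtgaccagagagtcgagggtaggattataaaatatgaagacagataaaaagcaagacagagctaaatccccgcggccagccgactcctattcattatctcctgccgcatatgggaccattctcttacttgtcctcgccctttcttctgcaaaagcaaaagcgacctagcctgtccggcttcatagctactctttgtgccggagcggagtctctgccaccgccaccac
The KLF-type GT box GGGNGTGG was searched too, also on both strands. The Fzd5 window was 76.4% G or C and held 9 GC boxes, the nearest beginning 10 bases before the start. The Wif1 window was 62.8% G or C with 2 GC boxes, beginning 197 and 82 bases before the start. The Fzd1 window was 51.2% G or C and held the TCF/LEF core once, beginning 242 bases before the start. No matches overlapped in these windows. A window was found for 6 of the 10 genes (Fzd1, Fzd5, Fzd7, Sfrp2, Dkk2 and Wif1). The Sfrp2 window (chr3:83766071-83766320) lies inside the gene span printed below. The Dkk2 window (chr3:132085042-132085291) runs past the start of its printed span. These windows are therefore not wholly upstream of those spans. The GC box lay in 4 of these 6, against 32.72% of all 32817 windows of the same length. Whether its number goes with the direction of change was not tested, as only 1 of these 6 genes rose. Fzd5, which rose, had 9, and Fzd7, which did not pass, had 6. Dkk2 and Wif1, which fell, had 2 each, while Sfrp2, which also fell, and Fzd1 had 0. The TCF/LEF core lay in 1 of 6, against 13.83%, and the GT box in 0 of 6, against 15.86%. A match is a run of letters and does not show that a factor binds there.

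Values are array signals scaled to a common median of the kept probe sets and are given as mean ± SD with n = 3. Fold changes come from log2(signal + 16), so those of dim genes are understated. Tests are limma's moderated tests over all 14163 genes with Benjamini-Hochberg adjustment, a gene passes at an adjusted p under 0.05, and ± after a log2 change is its standard error. The labels describe independent samples without naming the animals behind them. The p-values therefore rest on the spread between samples alone, part of which may be technical, and 3 arrays per group limit the precision. The beta-actin ratio, the signal of the 3′ control over that of the 5′ control, is higher in shorter or degraded RNA. It stood at 34.9 ± 11.4 for PN9 arrays, 19.0 ± 7.14 for PN14, 12.7 ± 3.45 for PN20 and 12.7 ± 6.44 for Klf4CN. Arrays of one group correlated with Pearson's r from 0.921 to 0.978 over the probe sets. All 4 groups share 1 estimate of the spread, and without Klf4CN replicate 3 the number of genes that passed from PN9 to PN14 was 2074 in place of 992. Of 20 epithelial marker genes, 19 were called Present on all 3 arrays of every group. The other, Muc5ac, had 1 Present call at PN9 and none in Klf4CN. The brighter Klf4 probe set read 4285, 6667 and 5164 on the PN14 wild-type arrays and 10672, 8612 and 7247 on the arrays labelled Klf4CN. That difference (log2 change 0.72 ± 0.19) did not pass (limma adjusted p = 0.22), though it passed with array weights (limma adjusted p = 0.00534). The dimmer Klf4 probe set read 687, 1504 and 859 in wild type and 3854, 1829 and 851 in Klf4CN, and the groups overlapped. Since the deleted part is not given, these values do not check the labels.

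Between PN9 and PN20 the wild-type fornix gained Fzd5 signal and lost signal of Fzd2, Sfrp2, Dkk2 and Wif1. Fzd5, a receptor, was 3.05-fold higher at PN20. The inhibitors Dkk2, Wif1 and Sfrp2 were 2.43-fold, 2.29-fold and 1.92-fold lower, and the receptor Fzd2 was 1.69-fold lower. The other members, Fzd1, Fzd6, Fzd7, Sfrp1 and Dkk3, did not pass in any of the 4 comparisons as fitted here. Under other settings Fzd1 passed from PN9 to PN20 with array weights (log2 change 0.66 in place of 0.34, limma adjusted p = 0.0232) and Dkk3 under 3 settings given with its values. No member passed between Klf4CN and wild type at PN14. In bulk RNA of this kind, fewer cells of a type and less RNA per cell cannot be told apart.

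**Figure D1:**
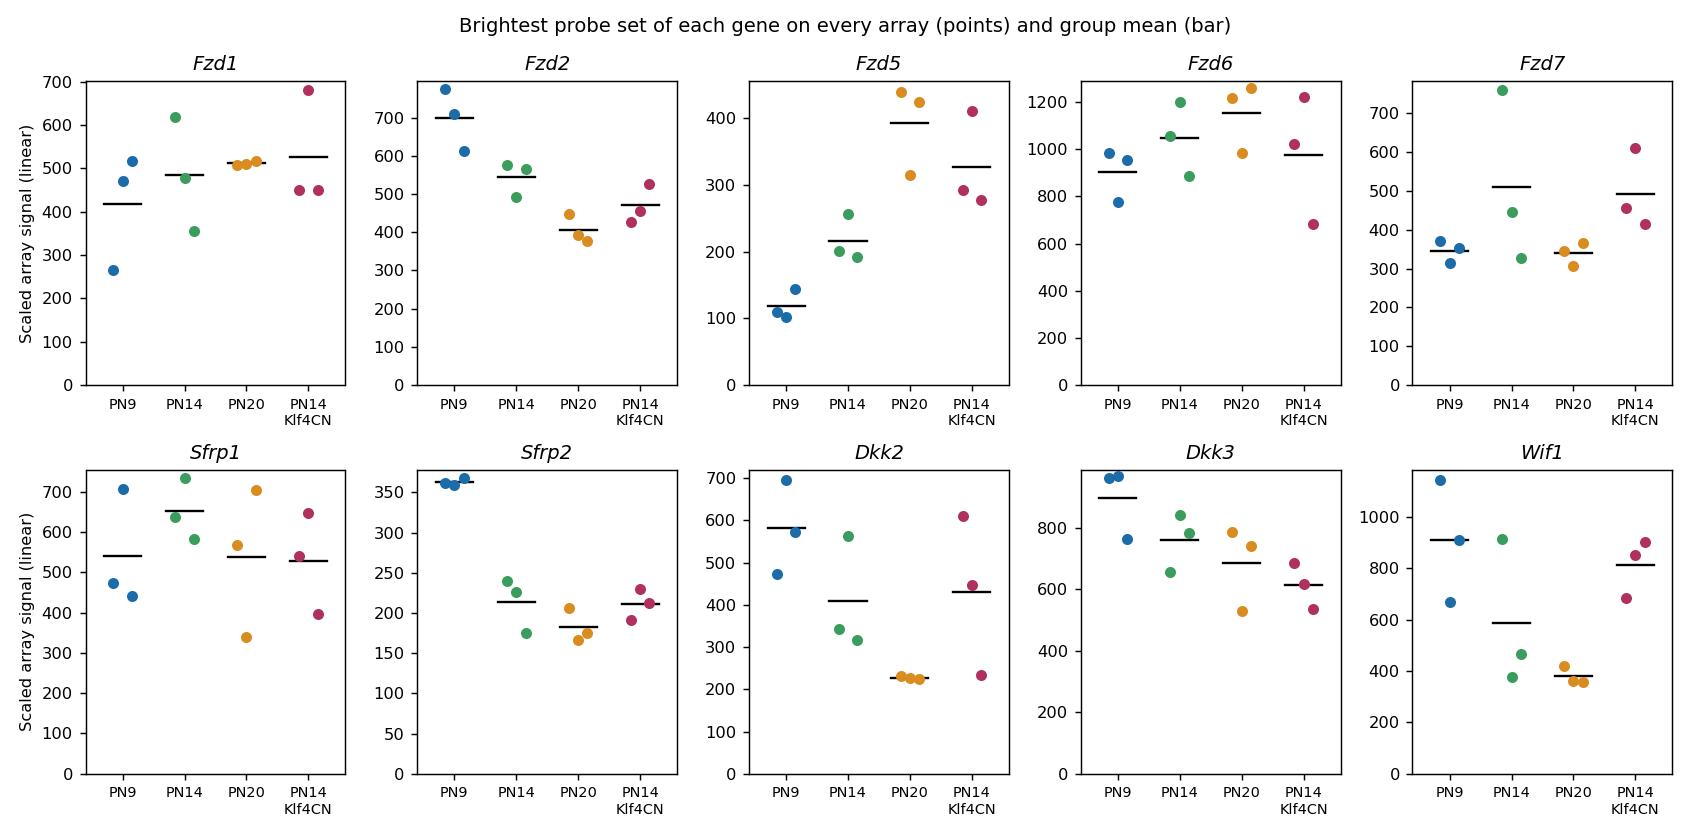
Scaled array signal (vertical axis, linear from 0, a separate scale for each gene) of the brightest probe set of each of the 10 genes on each array (points) with the group mean (bar), for the 3 wild-type ages and for Klf4CN at PN14. Fzd5 climbs from 118 at PN9 to 392 at PN20, while Fzd2, Sfrp2, Dkk2 and Wif1 end below all 3 PN9 arrays.

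Fzd5 (chromosome 1, 64730558 to 64737750, GRCm38.p6, as are all gene positions below) was the only member that rose. Its signal was 109, 101 and 143 on the PN9 arrays, 200.4, 256 and 192 on the PN14 arrays and 439, 315 and 424 on the PN20 arrays. Each age lay wholly above the one before, with no overlap between neighbouring ages. The mean was 118 ± 22.5 at PN9, 216 ± 34.6 at PN14 and 392 ± 67.7 at PN20. The rise from PN9 to PN20 had a log2 change of 1.61 ± 0.22 (limma adjusted p = 0.000266) and a 95% interval of 1.15 to 2.07. The step from PN9 to PN14 was 1.74-fold (log2 change 0.80 ± 0.22, limma adjusted p = 0.0412). From PN14 to PN20 the values were again 1.75-fold apart (log2 change 0.81 ± 0.22), but this did not pass (limma adjusted p = 0.0742). The first step is the less secure of the calls on Fzd5: it was lost without any 1 of 9 arrays (all but PN9 replicate 3 and Klf4CN replicates 2 and 3), with adjusted p-values of up to 0.144. It was lost too with the replicate block (0.0586), an offset of 64 (0.0529), no filter (0.0511), scaling on the median over every probe set (0.0659), the beta-actin ratio as a covariate (0.235) and the mean of the kept probe sets (log2 change 0.32, limma adjusted p = 0.432). The second step passed with array weights (limma adjusted p = 0.0118), with only the groups compared (0.0287) and without Klf4CN replicate 3 (0.0376). The other Fzd5 probe set, 1422937_at, lay between 2.66 and 43.4, was Present on no array and is given no fold. The mean of the kept probe sets, which includes it, put the rise from PN9 to PN20 at a log2 change of 0.82 in place of 1.61 (limma adjusted p = 0.0270).

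Fzd2 (chromosome 11, 102604431 to 102608058), a receptor that transmits signals of Wnt5a among other ligands, was the only Frizzled gene of the set that fell. Its brightest probe set read 776, 708 and 613 at PN9, 577, 491 and 566 at PN14, and 448, 393 and 376 at PN20. The 3 ages formed 3 separate bands, each below the one before. The fall from PN9 to PN20 had a log2 change of -0.76 ± 0.17 (limma adjusted p = 0.00644) and a 95% interval of -1.13 to -0.39. Neither step alone passed: the log2 change was -0.35 ± 0.17 (limma adjusted p = 0.219) to PN14 and -0.41 ± 0.17 (limma adjusted p = 0.241) from there to PN20. Both dimmer Fzd2 probe sets fell further, in a fit over all kept probe sets. The probe set 1418533_s_at went from 299 ± 49.0 to 98.8 ± 12.7 (log2 change -1.45 ± 0.20, limma adjusted p = 0.00041). Probe sets whose names end in _s_at or _x_at may detect other transcripts as well. The probe set 1418532_at went from 283 ± 34.7 to 98.8 ± 17.7 (log2 change -1.39 ± 0.31, limma adjusted p = 0.00723), with a Present call on 1 of 3 arrays at PN20. These 2 probe sets had fallen by PN14 already, by log2 changes of -1.10 ± 0.20 and -1.40 ± 0.31 (limma adjusted p = 0.0106 and 0.0234). The brightest one had not passed by then. With the mean of the kept probe sets in place of the brightest, the Fzd2 step from PN9 to PN14 passed (log2 change -0.95, limma adjusted p = 0.0121).

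Of the remaining receptors, Fzd6 (chromosome 15, 39006149 to 39038192), known in mice for hair patterning through planar polarity, did not pass between any 2 ages. It read 906 ± 113 at PN9, 1048 ± 157 at PN14 and 1153 ± 149 at PN20. Its log2 change from PN9 to PN20 was 0.34 ± 0.22 (limma adjusted p = 0.287), with a 95% interval of -0.13 to 0.82. Fzd1 (chromosome 5, 4753839 to 4758216), a receptor of the canonical branch, stood at 265, 470.1 and 516 at PN9, 619, 478 and 355 at PN14 and 507, 510.5 and 517 at PN20. Its arrays overlapped between all ages, with 1 low array at PN9 and a wide spread at PN14, and the change from PN9 to PN20 was 0.34 ± 0.27 on the log2 scale (limma adjusted p = 0.390). With array weights Fzd1 also passed in the F test over age (adjusted p = 0.0494). Fzd7 (chromosome 1, 59482147 to 59486955), a receptor known from epithelial stem cells of the mouse intestine, was 346 ± 29.2 at PN9, 511 ± 224 at PN14 and 340 ± 29.8 at PN20. The higher PN14 mean came with arrays at 760.2, 446 and 327, of which the highest exceeded every other array in the set and the lowest lay within the PN9 range. Neither Fzd7 step passed (log2 change 0.46 ± 0.26 and then -0.49 ± 0.26, limma adjusted p = 0.275 and 0.366). From PN9 to PN20 the Fzd7 difference was -0.026 on the log2 scale, with a 95% interval of -0.58 to 0.53. Changes within that interval were not excluded. Second probe sets of these genes were near the floor: 1448662_at and 1458904_at of Fzd6 did not exceed 50.01, and 1422985_at of Fzd1 and 1450043_at of Fzd7 did not pass the filter.

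Among the Sfrp genes, whose products bind Wnt proteins through a domain like that of Frizzled, Sfrp2 fell and Sfrp1 did not pass. Sfrp2 (chromosome 3, 83765750 to 83774314) read 361, 359 and 368 at PN9, 240.3, 226 and 175 at PN14 and 206, 166 and 175 at PN20. The PN9 arrays lay close together and above all others, while PN14 and PN20 overlapped. The log2 change was -0.73 ± 0.18 from PN9 to PN14 (limma adjusted p = 0.0271) and -0.94 ± 0.18 from PN9 to PN20 (limma adjusted p = 0.00206). The first of these was lost without PN9 replicate 1 (limma adjusted p = 0.0837), PN9 replicate 2 (0.0584), PN14 replicate 1 (0.0530), PN14 replicate 2 (0.0640) or PN14 replicate 3 (0.0795). Sfrp1 (chromosome 8, 23411383 to 23449632) gave 473, 708 and 442 at PN9, 637, 735 and 583 at PN14 and 567, 339.9 and 705 at PN20, and the 3 ages overlapped. Its log2 change from PN9 to PN20 was -0.038 ± 0.27 (limma adjusted p = 0.939), with a 95% interval of -0.62 to 0.55. The 4 kept Sfrp1 probe sets disagreed in sign from PN9 to PN14: log2 changes were 0.29 for the brightest, -0.56 for 1448395_at, -0.36 for 1438620_x_at and 0.24 for 1460187_at, and none passed. The fifth, 1416594_at, was Present on no array and did not pass the filter.

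Dkk2 (chromosome 3, 132085266 to 132180304) was an inhibitor that fell between PN9 and PN20. It read 474, 696 and 573 at PN9, 344, 563 and 318 at PN14 and 231, 227 and 224 at PN20. The PN20 arrays lay close together and below every wild-type array of the earlier ages, while PN9 and PN14 overlapped. The log2 change from PN9 to PN20 was -1.28 ± 0.30 (limma adjusted p = 0.0077), with a 95% interval of -1.92 to -0.64. The steps gave -0.52 ± 0.30 (limma adjusted p = 0.289) and -0.76 ± 0.30 (limma adjusted p = 0.210). With array weights the step from PN14 to PN20 passed (log2 change -0.79, limma adjusted p = 0.0387). Dkk3 (chromosome 7, 112116019 to 112159482), a divergent family member, went from 897 ± 115 at PN9 through 760.0 ± 95.4 at PN14 to 685 ± 137 at PN20. That difference did not pass (log2 change -0.39 ± 0.20, limma adjusted p = 0.168), and its dimmer probe set 1417312_at gave -0.54 ± 0.23 (limma adjusted p = 0.123). Dkk3 passed with the signals as deposited (log2 change -0.55, limma adjusted p = 0.0369), with quantile normalization (-0.63, 0.0203) and with array weights (-0.43, 0.0468).

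Wif1 (chromosome 10, 121034004 to 121100642), which binds Wnt proteins through a domain of its own kind, read 1144, 669.5 and 910.4 at PN9. The PN14 arrays stood at 915, 378 and 465 and the PN20 arrays at 420.2, 361 and 357. All PN20 arrays were below all PN9 arrays, and PN14 spanned both, with replicate 1 at a PN9 level. The log2 change from PN9 to PN20 was -1.20 ± 0.29 (limma adjusted p = 0.00838), with a 95% interval of -1.81 to -0.58. From PN9 to PN14 it was -0.69 ± 0.29 (limma adjusted p = 0.147), and without PN14 replicate 1 it was -1.05 and passed (limma adjusted p = 0.0450). That step passed with array weights too (log2 change -0.88, limma adjusted p = 0.0305).

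**Figure D2:**
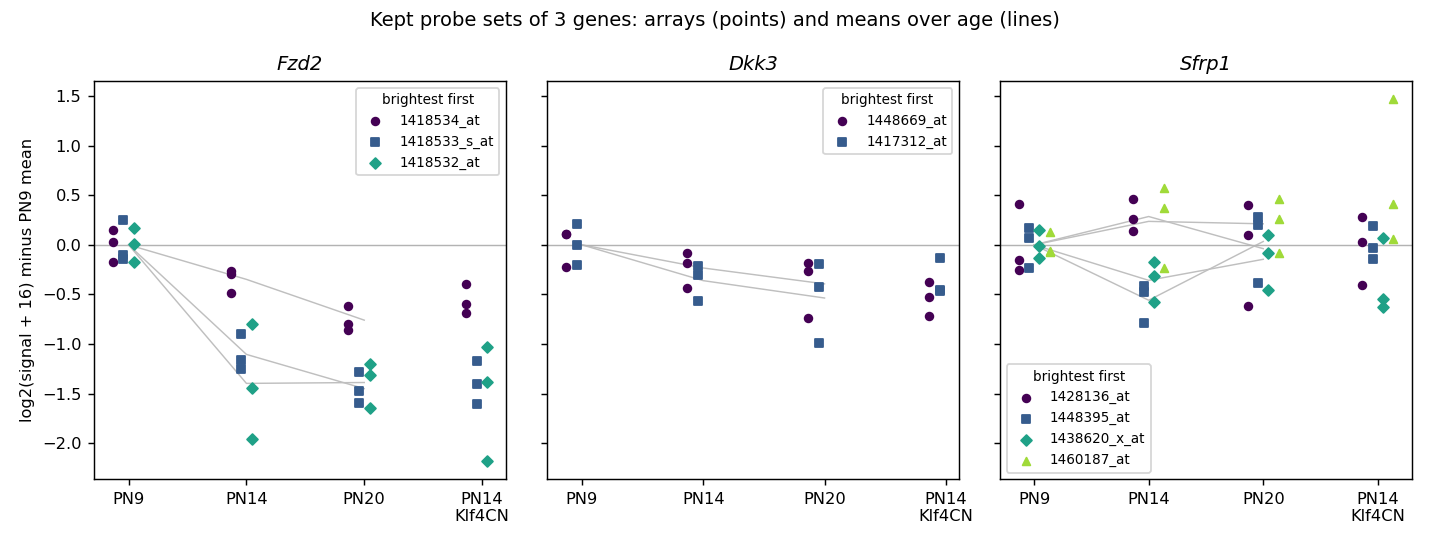
Difference from the PN9 mean in log2(signal + 16) (vertical axis) for every kept probe set of Fzd2, Dkk3 and Sfrp1, with arrays as points and the means over the 3 wild-type ages joined by lines. The 3 Fzd2 probe sets all end below 0, by 0.76 to 1.45 on average, while those of Sfrp1 spread to both sides of 0.

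Counted over the set, 2 of 10 genes passed from PN9 to PN14, where 7.00% of all genes passed. Of these 1 rose, against 4.34% of all genes, and 1 fell, against 2.66%. The groups did not overlap for 3 of 10, against 29.8% of all genes, 1 of them higher at PN14 (17.0%) and 2 lower (12.8%). From PN14 to PN20, 0 of 10 passed by limma, where 1.35% of all genes did (0.671% higher and 0.678% lower), and 3 of 10 had an unadjusted p under 0.05 (Fzd2, Fzd5 and Dkk2), against 16.9% of all genes. The groups of that step did not overlap for the same 3, against 30.3% of all genes, 1 of them higher at PN20 (16.2%) and 2 lower (14.2%). From PN9 to PN20, 5 of 10 passed, where 24.3% of all genes did. By direction, 1 rose, against 13.5% of all genes, and 4 fell, against 10.8%. Over the 3 ages together limma's F test called the same 5 genes, where 20.1% of all genes passed, with adjusted p-values of 0.000941 for Fzd5, 0.00506 for Sfrp2, 0.0194 for Fzd2, 0.0222 for Dkk2 and 0.0243 for Wif1. The F call was lost for Fzd2 without PN9 replicate 1 or PN20 replicates 2 or 3, for Dkk2 without PN9 replicate 2 or any 1 PN20 array, and for Wif1 without PN9 replicates 1 or 3 or any 1 PN20 array, with adjusted p-values of up to 0.104. The F call on Fzd5 was lost with the mean of its kept probe sets (adjusted p = 0.0673) and with the beta-actin ratio as a covariate (0.0524). The groups at PN9 and PN20 did not overlap for 5 of 10 genes, against 43.6% of all genes, 1 of them higher at PN20 (25.2%) and 4 lower (18.5%). The median log2 change of the 10 genes was -0.014 from PN9 to PN14, -0.27 from PN14 to PN20 and -0.22 from PN9 to PN20, beside 0.010, 0.012 and 0.023 for all genes. The 5 calls from PN9 to PN20 were made whichever 1 array was left out, with a highest adjusted p of 0.0450, for Wif1. For Sfrp2, Dkk2 and Wif1 the call rests on the only probe set of the gene. These comparisons share groups, the PN14 arrays also serving as the wild type for Klf4CN, and are not independent of each other.

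**Figure D3:**
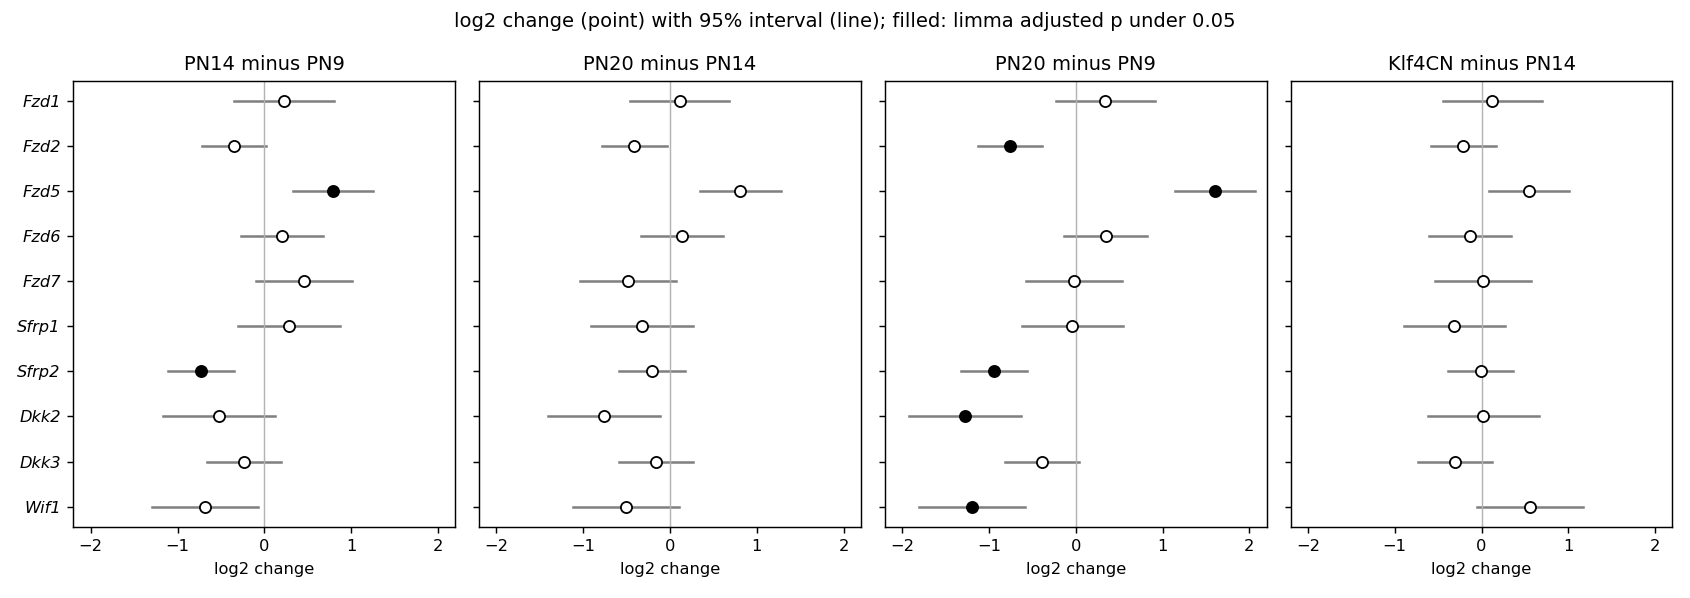
Fitted log2 change (horizontal axis) of each of the 10 genes with its 95% interval (line) in 4 comparisons, filled where limma's adjusted p is under 0.05. In the change from PN9 to PN20 Fzd5 lies at 1.61 and Fzd2, Sfrp2, Dkk2 and Wif1 at -0.76 to -1.28, and no point is filled for Klf4CN against PN14.

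Markers of other cells and RNA quality moved with age in the same samples. Of 24 fibroblast and stroma markers, 19 fell from PN9 to PN20 and none rose, with a median log2 change of -1.24. Of all genes, 10.8% fell and 13.5% rose between these ages. Loxl1, an enzyme of elastic fibres, was 5.98-fold lower, and the collagen gene Col6a1 was 3.03-fold lower. The summed signal of these 24 genes ranged from 91033 to 121766 at PN9, from 72480 to 86086 at PN14, from 52419 to 55914 at PN20 and from 68714 to 92477 in Klf4CN, and all 24 were Present on every array. Of 15 endothelial and mural markers, 8 fell and none rose (median -0.79), with summed signals of 12873 to 17113 at PN9, 11078 to 14019 at PN14, 5743 to 7270 at PN20 and 10114 to 21610 in Klf4CN. None of these markers was without a Present call in a group. Of 20 epithelial markers, 9 rose and 1 fell (median 0.80). The count of 1 was 0 without PN9 replicates 1 or 2 or any 1 PN20 array and 2 without PN9 replicate 3 or Klf4CN replicate 3. Epithelial markers had summed signals of 36616 to 58662 at PN9, 45894 to 63690.0 at PN14, 61679 to 64047 at PN20 and 32371 to 55676 in Klf4CN. The part of these shifts in the levels of Fzd2, Sfrp2, Dkk2, Wif1 and Fzd5 was not tested. With the beta-actin ratio of each array as a covariate, Fzd5 (log2 change 1.27, limma adjusted p = 0.0233), Sfrp2 (-1.13, 0.0196) and Wif1 (-1.55, 0.0424) still passed from PN9 to PN20, while Fzd2 (-0.73, 0.111) and Dkk2 (-1.37, 0.0991) did not. In that fit 577 of all genes passed, in place of 3442. The ratio was 24.2 to 46.8 on PN9 arrays and 9.76 to 16.5 on PN20 arrays, without overlap. RNA quality and age therefore cannot be told apart by this fit, for the genes that passed or for those that did not. Of 17 skeletal muscle genes, 6 rose from PN9 to PN14 (median 2.95), where 4.34% of all genes rose. From PN9 to PN20, 0 rose and 1 fell. The 17 genes had summed signals of 860 to 18628 at PN9, 22969 to 36216 at PN14, 4413 to 19340 at PN20 and 23812 to 59973 in Klf4CN. Klf4CN replicate 3 had the highest muscle sum (59973) and endothelial and mural sum (21610) of the 12 arrays. Its epithelial sum (32371) was the lowest. The count of 6 was 3 without PN9 replicate 1, 2 without PN9 replicate 2 or PN14 replicates 1 or 2, 14 without PN9 replicate 3 and 12 without Klf4CN replicate 3. From PN9 to PN20, 3 of 12 lens and retina genes rose and 0 fell, 2 of 11 gland and hair follicle genes rose and 1 fell, 1 of 10 leukocyte genes rose and 2 fell, and 0 of 9 melanocyte and Schwann cell genes rose and 1 fell.

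At PN14, Klf4CN and wild type were compared for the same 10 genes, and 0 of 10 passed by limma, where 0.184% of all genes did (0.0777% higher and 0.106% lower). The lowest adjusted p was 0.494, and 1 of 10 had an unadjusted p under 0.05, against 8.59% of all genes. That gene was Fzd5, at 293, 411 and 277 in Klf4CN against 200.4, 256 and 192 in wild type. All 3 Klf4CN arrays lay above all 3 wild-type arrays. The groups did not overlap for 1 of 10 members, against 13.1% of all genes, higher in Klf4CN for that 1, against 6.47%, and lower for 0, against 6.63%. The log2 change of Fzd5 was 0.55 ± 0.22 (limma adjusted p = 0.494), with a 95% interval of 0.091 to 1.01. Wif1 read 685, 853 and 902 in Klf4CN against 915, 378 and 465, and the groups overlapped through 1 wild-type array (log2 change 0.55 ± 0.29, limma adjusted p = 0.625). Dkk2 read 610.5, 447 and 235 in Klf4CN, which spans the wild-type range, and its log2 change was 0.022 ± 0.30 (limma adjusted p = 0.992). Sfrp2 stood at 211 ± 19.2 against 214 ± 34.2, with a 95% interval of the log2 change of -0.39 to 0.37. Fzd2 stood at 470.0 ± 51.2 against 545 ± 46.5 (log2 change -0.21 ± 0.17, limma adjusted p = 0.786) and Dkk3 at 612 ± 74.5 against 760.0 ± 95.4 (-0.30 ± 0.20, 0.714). For Fzd1, Fzd6, Fzd7 and Sfrp1 the log2 changes were 0.13, -0.13, 0.015 and -0.31, each with an interval that included 0. The Sfrp1 probe sets disagreed here too. The probe set 1448395_at read 166, 198 and 154 in Klf4CN against 124, 119 and 92.0 in wild type, without overlap. In the fit over all kept probe sets its log2 change was 0.57 ± 0.22 (limma adjusted p = 0.553). The log2 changes of 1438620_x_at and 1460187_at were -0.012 and 0.41, and neither passed. The 95% intervals of 9 of the 10 genes included 0 and reached from -0.90 for Sfrp1 to 1.17 for Wif1, so changes of up to 2.24-fold were not excluded at this number of arrays. The median over the 10 genes was 0.0027, beside -0.000597 for all genes. No member passed when any 1 array was left out.

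The authors' deposited table scores each probe set by the sum of 9 pairwise array comparisons, from -9 to 9. In the authors' deposited table the sum for PN20 against PN9 was 9 for Fzd5, -9 for all 3 Fzd2 probe sets, for Dkk2 and for Wif1, and -8 for Sfrp2. The brighter Dkk3 probe set had a sum of -6 there in the authors' deposited table and the dimmer one -9. By the codes of the authors' deposited table, Fzd5, Sfrp2, Dkk2, Wif1 and both dimmer Fzd2 probe sets passed the authors' own rule for PN9 against PN20, which asks for a fold threshold, groups without overlap and Present calls, and the brightest Fzd2 probe set did not. Both dimmer Fzd2 probe sets also passed that rule for PN9 against PN14. The authors' deposited table gave no member the code for Klf4CN against PN14.

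Other genes of the pathway were counted by role from lists that do not include the members. Of all genes, 13.5% rose and 10.8% fell from PN9 to PN20, with a median log2 change of 0.023. These shares stand beside each count of that comparison in the lists below. Of 15 Wnt ligand genes, 7 fell from PN9 to PN20 and 0 rose, with a median log2 change of -0.56. Wnt6, a ligand of surface ectoderm, went from 399 ± 176 to 67.9 ± 9.16, which is 4.65-fold lower (limma adjusted p = 0.000156). It had fallen by PN14 (log2 change -1.83 ± 0.27, limma adjusted p = 0.00285). Wnt5b, a ligand mostly of the beta-catenin-independent branch, went from 522 ± 205 to 148 ± 24.5 (log2 change -1.64 ± 0.32, limma adjusted p = 0.00286), and Wnt2 from 122 ± 26.9 to 54.3 ± 9.25 (-0.97 ± 0.22, 0.00646). The count of 7 ligands was 4 without PN9 replicate 1 or PN20 replicate 1 and 3 without PN20 replicate 2, and 1 with the beta-actin ratio as a covariate. Of 9 genes of ligand processing and secretion, 5 fell and 0 rose (median -0.61). Among them were Sulf2 and Sulf1, enzymes that trim the sulfate of heparan chains that hold Wnt proteins, at log2 changes of -1.23 ± 0.21 (limma adjusted p = 0.00114) and -0.94 ± 0.18 (0.00214). Gpc3, a glypican core protein, was 2.01-fold lower (limma adjusted p = 0.0090).

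Of 11 other Frizzled, co-receptor and related receptor genes, 2 fell from PN9 to PN20 and 0 rose (median -0.065). They were Ror2, the Wnt5a co-receptor, at a log2 change of -0.99 ± 0.19 (limma adjusted p = 0.00262), and Smo, which shares the Frizzled fold but serves Hedgehog signals, at -0.90 ± 0.19 (0.00396). Of 17 other inhibitor genes 2 fell, a share near the 10.8% of all genes that fell. They were Sfrp4 (-0.85 ± 0.24, limma adjusted p = 0.0213) and Igfbp4 (-0.68 ± 0.18, 0.0170), and each call was lost when certain single arrays were left out, with adjusted p-values of up to 0.0915 and 0.0725. For Sfrp4 these were PN9 replicate 2, PN20 replicate 2 and PN20 replicate 3, and for Igfbp4 PN9 replicate 1, PN9 replicate 2 and PN20 replicate 1. Of 6 R-spondin and Lgr genes 1 fell, the receptor gene Lgr6, from 131 ± 22.5 to 30.4 ± 3.79 (log2 change -1.66 ± 0.22, limma adjusted p = 0.000237).

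Of 25 cytoplasmic and nuclear components, 5 rose and 1 fell from PN9 to PN20 (median 0.25). Tnks and Tnks2, the tankyrases that mark axin for destruction, were 2.52-fold and 2.36-fold higher (limma adjusted p = 0.00557 and 0.00318), and Csnk1e, a casein kinase, was 2.08-fold higher (limma adjusted p = 0.00396). The Csnk1e call was lost with the mean of its kept probe sets (limma adjusted p = 0.883). Dvl1, a dishevelled adaptor that binds Frizzled, was 1.96-fold lower (limma adjusted p = 0.00811). The 5 that rose were 3 without PN9 replicates 1 or 2 or PN20 replicates 1 or 3, and 10 without Klf4CN replicate 3, and 2 components fell without PN9 replicate 3. Of 19 textbook beta-catenin target genes, 4 fell and 0 rose (median -0.13). Nkd2, a feedback inhibitor that binds dishevelled, was at least 2.67-fold lower, since no PN20 array had a Present call, and Ccn4 was 2.09-fold lower (limma adjusted p = 0.00109 and 0.00338). Axin2, the target most often used as a readout and named here outside the selection rule after its values were seen, gave 167 ± 24.7 at PN9 and 195 ± 5.87 at PN20 (log2 change 0.22 ± 0.22, limma adjusted p = 0.529). Of 16 genes of the planar polarity and calcium arms, 2 rose and 3 fell (median 0.028), beside 13.5% and 10.8% of all genes. Rac1, a small GTPase, was 2.95-fold higher (limma adjusted p = 0.00056). The 2 that rose included Rac1 under every setting tried, and their number was 1 without PN9 replicate 2 or any 1 PN20 array and 4 without Klf4CN replicate 3, and the 3 that fell were 1 without PN20 replicate 2. In Klf4CN against PN14 wild type, no gene of these 8 pathway lists passed by limma. With the beta-actin ratio as a covariate Wnt6, Sulf1, Sulf2, Lgr6, Ccn4 and Rac1 still passed from PN9 to PN20, while Wnt5b, Wnt2, Gpc3, Ror2, Smo, Sfrp4, Igfbp4, Tnks, Tnks2, Csnk1e, Dvl1 and Nkd2 did not. Their log2 changes in that fit kept their sign, among them -1.42 for Wnt5b, -1.10 for Gpc3, -0.95 for Smo, 0.47 for Tnks and 0.93 for Tnks2. The ratio did not overlap between PN9 and PN20 arrays, so RNA quality and age cannot be told apart by that fit.

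**Figure D4:**
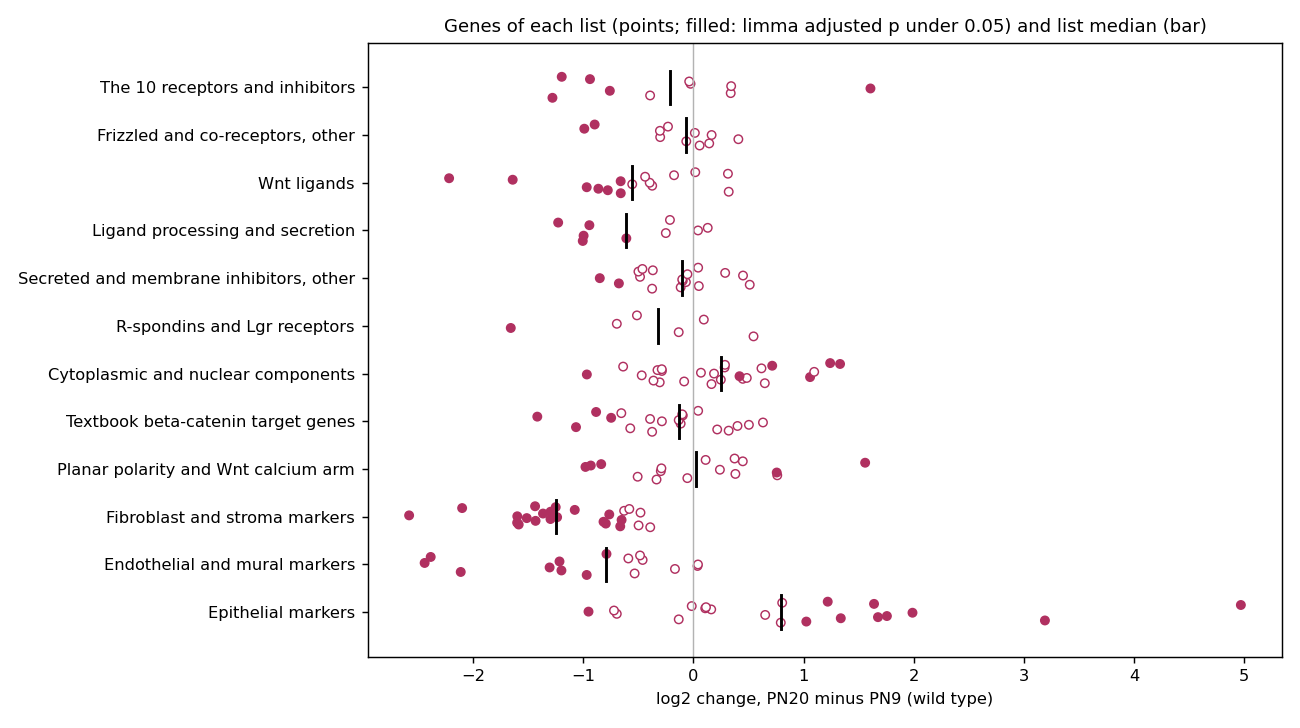
Fitted log2 change from PN9 to PN20 in wild type (horizontal axis) for each tested gene (points, filled where limma's adjusted p is under 0.05) of the 10 receptors and inhibitors, of 8 lists of other Wnt pathway genes and of 3 lists of cell type markers, with the median of each list as a bar. The medians are -0.22 for the 10 genes, -0.56 for the Wnt ligands, 0.25 for the cytoplasmic and nuclear components and -1.24 for the fibroblast and stroma markers.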

How the data were processed

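RNA of laser-captured conjunctival fornix epithelium was amplified in 2 cycles and hybridized to arrays of 45101 probe sets, per the labels' protocols. GCOS 1.4 gave the authors' signal intensities, scaled to a trimmed mean of 150, per the submitters' processing notes and the deposited readme. The deposited count of Present calls per group and the deposited score, a sum over 9 pairwise array comparisons, were made by the authors too.

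Computed here: 64 control probe sets were left out, and probe sets above the 40th percentile of their own array on at least 3 arrays were kept (30600). Arrays were scaled to a common median of these (factors 0.856 to 1.11), and log2(signal + 16) was fitted with limma 3.58.1 in R 4.3.3, with 1 mean per group over 12 arrays and a trended variance (8 residual degrees of freedom). The script was tested on simulated data. Each gene was represented by its brightest kept probe set. Of all probe sets, 34958 had 1 gene symbol, 932 several and 9211 none, and the last 2 kinds were not counted. A gene against a group with no Present call gets a bound. All members are named, with up to 4 genes per pathway list and comparison by size of change among those that passed without overlap, and not all of them are printed. The members, lists, tests and alternatives were chosen with earlier results of these data known, so their counts are descriptions. Alternatives covered the threshold, offset, scaling, filter, probe set choice, variance model, array weights, groups fitted, a replicate block, the beta-actin ratio and leaving out each array.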

Additional observations from a re-analysis of the deposited data

How the results depend on the processing

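From PN9 to PN20 the 5 member calls kept their direction under all 25 alternatives run and their side of the threshold under all but one, the beta-actin ratio as a covariate, which left 3. The signal over background and 3 arrays per group limit the smaller steps, and the cause of a lost call was not tested unless the setting itself left fewer arrays. Numbers in brackets count all tested genes that passed under the same setting. From PN9 to PN14 the number of members called was 1 with an offset of 64 (571 higher and 433 lower) and 1 with no filter (500 and 309). It was 0 when scaled to the median of all probe sets (568), 0 with the beta-actin ratio (131) and 0 to 2 without 1 array (298 to 2074). From PN14 to PN20, where 191 of all genes passed as fitted here, it was 1 at an adjusted p under 0.10 (647). It was 2 with array weights (1493), 1 with only the groups compared (1141) and 0 to 1 without 1 array (3 to 726). In the test over age it was 3 when scaled to the median of all probe sets, 1 with the beta-actin ratio (426) and 2 to 5 without 1 array (1602 to 4072). From PN9 to PN20 it was 5 (2090 to 4336) and for Klf4CN 0 (4 to 71) without any 1 array.

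The replicate numbers showed no regular pairing of the samples: 6 of 18 same-numbered pairs correlated above 0.1, from -0.24 to 0.27, and in 6 of these 18 comparisons between groups the own number gave the best correlation. Between PN9 and Klf4CN the own number was best for replicates 1, 2 and 3 (0.18, 0.035 and 0.16). With 3 arrays per group these correlations cannot exclude pairing. With the replicate block 1 member passed from PN9 to PN14 and 102 genes from PN14 to PN20. The block changed no other count of calls by over 1.5 times.

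Genes called from PN9 to PN14 (992) were 2054 at an adjusted p under 0.10, 568 when scaled to the median of all probe sets, 2971 with array weights, 131 with the beta-actin ratio and 298 to 2074 without 1 array. Of them 62.0% were higher, against 48.1% with signals as deposited and 74.8% when scaled to the median of all probe sets. From PN14 to PN20 (191) they were 647 at 0.10, 99 with the median of all probe sets, 111 with no filter, 106 with the mean of kept probe sets, 120 without a variance trend, 1493 with array weights, 1141 with only the groups compared, 100 with the beta-actin ratio and 3 to 726 without 1 array. There 49.7% were higher, against 28.3% with the median of all probe sets. From PN9 to PN20 (3442) they were 5832 with array weights, 577 with the beta-actin ratio and 2090 to 4336 without 1 array, and 55.5% were higher, against 40.7% with signals as deposited, which moved the median log2 change of all genes from 0.023 to -0.11. For Klf4CN (26) they were 10 with the median of all probe sets, 453 with array weights, 6 with only the groups compared, 5 with the beta-actin ratio and 4 to 71 without 1 array, and 11 were higher, against 3 with the median of all probe sets. In the test over age (2846) they were 5841 with array weights, 426 with the beta-actin ratio and 1602 to 4072 without 1 array.

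Signs turned for members that did not pass. With the beta-actin ratio Fzd1 was at -0.17 (PN9 to PN14), -0.12 (PN14 to PN20), -0.29 (PN9 to PN20) and -0.17 (Klf4CN), and Fzd7 at -0.23 and Dkk2 at -0.022 (both Klf4CN). With the mean of kept probe sets Fzd6 was at -0.048 (PN9 to PN14) and 0.015 (Klf4CN), and Sfrp1 at -0.098, 0.11, 0.016 and 0.16 in the 4 comparisons. With array weights Sfrp1 was at 0.097 (PN9 to PN20), and Fzd1 at -0.036 and Fzd7 at -0.076 (both Klf4CN). In Klf4CN, Fzd7 was at -0.018 as deposited, -0.0090 with the median of all probe sets and -0.0058 after quantile normalization, and Dkk2 at -0.012, -0.00073 and -0.023. Where leaving out 1 array turned a sign, the values ran from -0.059 to 0.43 for Fzd1 (PN9 to PN14), from -0.087 to 0.30 for Fzd1 and from -0.27 to 0.011 for Dkk3 (PN14 to PN20), and from -0.092 to 0.041 for Fzd7 and from -0.26 to 0.25 for Sfrp1 (PN9 to PN20). In Klf4CN they ran from -0.072 to 0.32 for Fzd1, -0.31 to 0.10 for Fzd6, -0.25 to 0.34 for Fzd7, -0.14 to 0.074 for Sfrp2 and -0.27 to 0.39 for Dkk2.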
